A study of Mus musculus with 18 samples.

Results

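The guanylate-binding proteins (GBPs) are a family of interferon-induced GTPases, and the 8 genes described here are Gbp2, Gbp3, Gbp4, Gbp5, Gbp6, Gbp7, Gbp8 and Gbp9. They were taken by symbol from the 50600 genes of the count table, and all 8 were among the 16927 genes that passed the filter on low counts. RNA was sequenced from whole B16F10 tumors, a mouse melanoma cell line grown under the skin of C57BL/6 mice, that had been injected intratumorally and collected 24 h after the last injection. The groups given 1 dose received PBS, unloaded extracellular vesicles (EVs), exoCDN2 (0.1 µg of the cyclic dinucleotide CDN2, a STING agonist, loaded into EVs), or free CDN2 at 20 µg or 100 µg. PBS, exoCDN2 and free CDN2 at 20 µg were also given as 2 doses separated by 3 days, and a further group of 2 doses received free CDN2 of an amount that the labels do not give. CDN2 is called CL656 in the labels. The EVs came from HEK293 cells, a human embryonic kidney line, engineered to overexpress PTGFRN, and each B16F10 tumor holds the injected melanoma line together with immune and stromal cells of the host. There were 2 tumors per group, 18 in all, and the labels do not name the mouse behind each tumor, so p-values measure the spread between these tumors only.

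GBPs are large GTPases of the dynamin superfamily that bind and hydrolyze GTP and assemble on membranes. Interferon-γ and, to a lesser extent, type I interferons induce their transcription through ISRE and GAS elements in promoters, and IRF1 acts on the former. They are best known for coating the vacuoles of intracellular parasites and the surface of bacteria, and for aiding the inflammasomes that respond to bacterial lipopolysaccharide and to DNA in the cytosol. In tumors they are often read as markers of interferon signaling, in tumor cells, macrophages and endothelium alike.

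In mouse the family lies in 2 gene clusters. On chromosome 3, on the plus strand of GRCm38, lie Gbp5 (ENSMUSG00000105504, chr3:142493978-142522344), which assists the NLRP3 inflammasome, Gbp7 (ENSMUSG00000040253, chr3:142530342-142550149), linked to assembly of the phagocyte oxidase, Gbp3 (ENSMUSG00000028268, chr3:142560026-142573209) and Gbp2 (ENSMUSG00000028270, chr3:142620602-142638008), a prenylated member that coats parasite vacuoles. On the minus strand of chromosome 5 lie Gbp8 (ENSMUSG00000034438, chr5:105014150-105139540), Gbp9 (ENSMUSG00000029298, chr5:105077630-105139539), Gbp4 (ENSMUSG00000079363, chr5:105115767-105139586) and Gbp6 (ENSMUSG00000104713, chr5:105270702-105293698). The models of Gbp8, Gbp9 and Gbp4 overlap on the same strand, with 60 or 61 exon bases common to each pair, at most 1.77% of any of these models. The coding sequences of the chromosome 5 members were 90.9% (Gbp6 and Gbp9) to 93.9% (Gbp4 and Gbp8) identical. On chromosome 3 identity was lower, with 80.8% for Gbp3 and Gbp7 and 73.0% for Gbp2 and Gbp5.

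Reads shared between these near copies limit which gene a count belongs to. Of all stretches of 150 bases in its transcripts, the read length used, Gbp6 shared 59.07% with its neighbor Gbp10 or the readthrough gene Gm43302, and Gbp7 shared 8.77% with Gm43802. For Gbp4 the share was 0.03%, and Gbp2, Gbp3, Gbp5, Gbp8 and Gbp9 shared none. The expected count of Gbp6 was not a whole number in 17 of 18 tumors (off by over 0.01), that of Gbp4 in 3 and that of Gbp7 in 1, and the other 5 members were whole in every tumor. Summing Gbp6 and Gbp10 into one row changed the call of no member in any of the 15 comparisons. Values of Gbp6 may thus hold reads of Gbp10.

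Promoter sequences were available from RefSeq (GRCm38.p6) for 4 of the 8 members, Gbp5, Gbp7, Gbp3 and Gbp2, and for the neighboring Gbp2b. Those of the 4 members are shown because the interferon-responsive letters in them differ between members, and Gbp4, Gbp6, Gbp8 and Gbp9 are named only. The 250 bases before each start were searched on both strands for the letters of an interferon-stimulated response element (ISRE), GAAA, any 2 bases and GAAA, and the palindrome TTCNNNGAA of a gamma-activated site (GAS), and matches are in capitals, which run together where they touch or overlap. Stretches are written 5′ to 3′ on the plus strand and stop before annotated exons, except that for Gbp2 the match itself lies in an annotated exon and only 30 bases around it are given.
Gbp5, chr3:142496684-142496899: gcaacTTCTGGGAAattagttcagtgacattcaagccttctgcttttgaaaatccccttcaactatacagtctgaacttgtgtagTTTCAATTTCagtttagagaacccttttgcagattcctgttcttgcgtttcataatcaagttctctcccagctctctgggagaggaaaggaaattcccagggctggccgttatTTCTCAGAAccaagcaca
Gbp7, chr3:142530086-142530335: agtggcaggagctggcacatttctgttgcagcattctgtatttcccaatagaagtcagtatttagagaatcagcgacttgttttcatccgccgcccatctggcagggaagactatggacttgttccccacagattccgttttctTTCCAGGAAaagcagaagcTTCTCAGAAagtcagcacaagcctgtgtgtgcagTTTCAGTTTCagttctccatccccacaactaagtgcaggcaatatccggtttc
Gbp3, chr3:142559794-142560025: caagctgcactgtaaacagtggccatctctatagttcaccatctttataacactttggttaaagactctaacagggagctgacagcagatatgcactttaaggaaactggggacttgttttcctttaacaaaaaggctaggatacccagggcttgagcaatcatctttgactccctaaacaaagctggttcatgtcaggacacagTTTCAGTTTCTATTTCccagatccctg
Gbp2, chr3:142620594-142620623: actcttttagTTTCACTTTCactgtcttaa

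The ISRE letters stood once before Gbp5, Gbp7, Gbp2 and Gbp2b, between 165 and 44 bases ahead of the start, and as 2 overlapping matches before the upstream start of Gbp3. The second start of Gbp3 had neither motif. The RefSeq start used for Gbp5 lies inside its gene model, which begins at chr3:142493978, and the bases before that upstream end were not searched. Among all 32851 promoter windows of the same length, 2.98% held the ISRE letters. The GAS letters stood 2 times before Gbp5 and 2 times before Gbp7, and before neither Gbp3 nor Gbp2, against 7.02% of all windows. Both motifs together, as before Gbp5 and Gbp7, were held by 0.33% of all windows. A match of letters is a description of the sequence and not a binding site.

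**Figure D1:**
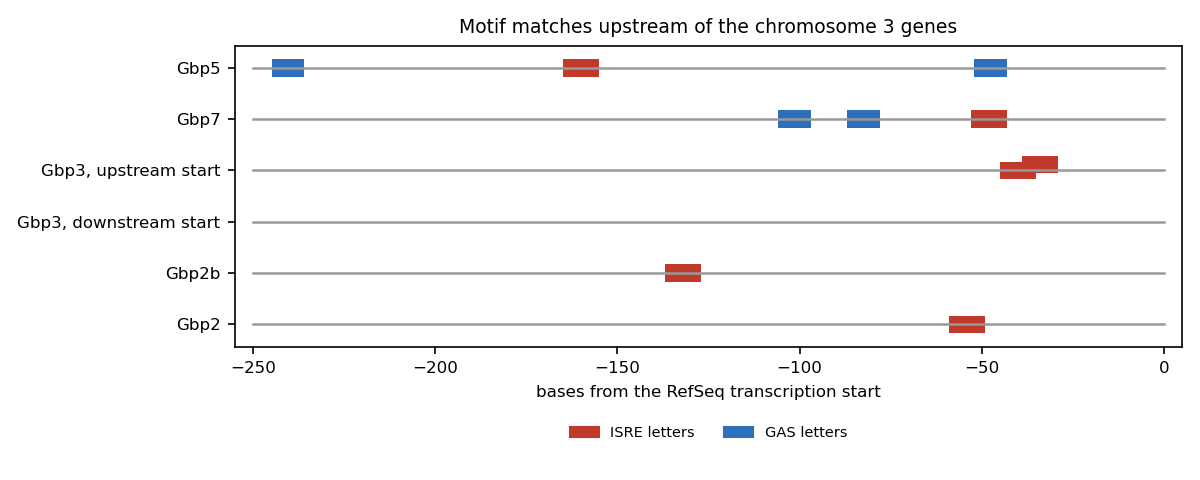
Matches to the ISRE letters (red) and the GAS letters (blue) in the 250 bases before the RefSeq starts of the chromosome 3 family genes. The horizontal axis is the distance from the start in bases, each grey line is one window, and only Gbp5 and Gbp7 hold both motifs.

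Total expected counts per tumor ranged from 21608895 to 65983630, and the lowest belonged to tumor 1 of CDN2 (20 µg) after 2 doses. The 2 tumors of that group differed by over 2-fold in 14% of genes, against 0.13% to 3.28% in the other groups. The 7 melanoma markers summed to between 15066 and 25110 CPM (expected counts scaled to a common library size) in the other groups and to 7409 and 12884 CPM in that one and no marker of the list was at 0 in both tumors of any group. Skeletal muscle markers summed to 1547 and 3130 CPM in that group and to at most 449 CPM elsewhere, and their part in the GBP values of these tumors was not tested. In whole tumors, fewer cells of a type and less RNA per cell cannot be told apart.

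Within every tumor the members kept the same extremes. Per kilobase of exon, Gbp2 was the highest of the 8 in 18 of 18 tumors and Gbp8 the lowest in 18 of 18. Gbp2 supplied between 46.8% and 66.3% of the summed CPM per kilobase of the members, and Gbp8 between 0.0295% and 1.78%. Between them the order shifted, with Gbp3 ranking from 2 to 4, Gbp6 from 2 to 5, Gbp7 from 2 to 7, Gbp4 and Gbp5 from 4 to 7, and Gbp9 from 5 to 7. All 8 members had their lowest CPM in tumor 2 of PBS after 2 doses. For 6 members the highest CPM was in tumor 1 of exoCDN2 after 2 doses, whereas Gbp5 was highest in tumor 2 of CDN2 (20 µg) after 1 dose and Gbp7 in tumor 1 of exoCDN2 after 1 dose. The distance between lowest and highest tumor was 499-fold for Gbp4 and 113-fold for Gbp3, the widest and the narrowest of the 8.

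**Figure D2:**
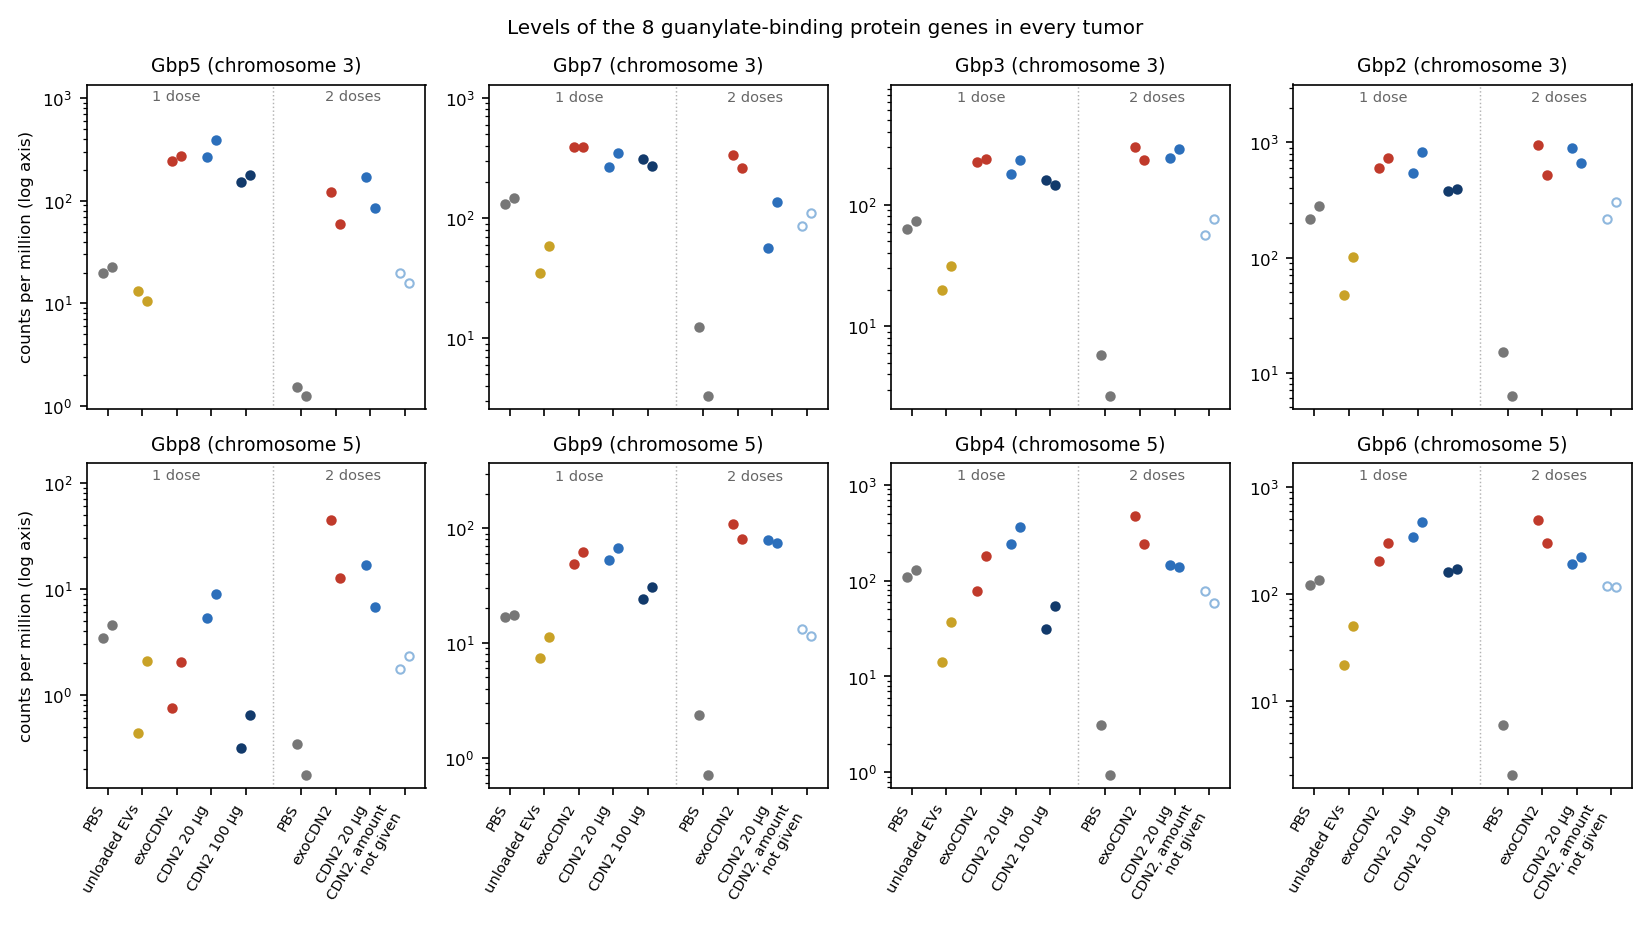
CPM of each member in every tumor on a log axis, with the chromosome 3 genes above and the chromosome 5 genes below, 1 dose left and 2 doses right of the dotted line, and 1 point per tumor. Open points are the tumors given CDN2 of an amount not stated. PBS after 2 doses (right grey points) lies lowest for 7 genes, Gbp8 being the exception with 0.317 CPM in a 100 µg tumor against 0.347 and 0.175 CPM, and Gbp8 and Gbp4 after 1 dose of CDN2 at 100 µg lie below the PBS tumors of 1 dose.

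The control tumors of 1 and 2 doses lay apart for every member. After 1 dose of PBS, Gbp2 stood at 216 and 282 CPM, and after 2 doses at 15.2 and 6.22 CPM. Gbp4 fell from 110 and 129 CPM to 3.14 and 0.941 CPM, and Gbp5 from 19.7 and 22.6 CPM to 1.55 and 1.25 CPM. The 2 pairs of control tumors did not overlap for any of the 8 members, as for 22.9% of all genes with the 2-dose pair below. In edgeR's quasi-likelihood test, 7 of 8 members were called lower after 2 doses of PBS than after 1, against 1.05% of all genes, where a gene was called when its adjusted p lay under 0.05 and it differed by more than 2-fold. The log2 fold change was -5.86 for Gbp4 (SE 0.70, adjusted p = 0.001), -4.54 for Gbp2 (SE 0.50, adjusted p = 0.00062) and -3.49 for Gbp9 (SE 0.42, adjusted p = 0.001). Gbp8 had a value of -3.92 (SE 0.91) that was not called (adjusted p = 0.072), on 157 and 231 counts after 1 dose and 17 and 8 after 2. Summed T cell markers stood at 7.07 to 9.31 CPM in the PBS tumors of 1 dose and 0.985 to 2.22 CPM in those of 2 doses (1 of 6 called lower), and keratinocyte markers at 61.8 to 115 CPM and 0.0438 to 0.429 CPM (0 of 4 called), and their part in the result was not tested. Every value against PBS below therefore depends on which PBS pair it is set against. Tumors of 2 doses were collected 24 h after an injection that followed the first by 3 days. Number of doses and time since the first injection cannot be told apart here, nor in the other comparisons of 2 doses with 1.

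Unloaded EVs did not raise the family. Gbp2 stood at 47.3 and 101 CPM after 1 dose of unloaded EVs, Gbp3 at 19.8 and 31.4 CPM against 62.9 and 73.6 CPM in PBS, and Gbp5 at 13.2 and 10.5 CPM. For all 8 members both EV tumors lay below both PBS tumors, as they did for 23.5% of all genes. No member was called (0% of all genes were, by edgeR), and the fold changes ran from -2.22 for Gbp4 (SE 0.58, adjusted p = 0.75) to -0.83 for Gbp5 (SE 0.35, adjusted p = 1). At an unadjusted p under 0.05 there were 7 members and 3.19% of all genes. DESeq2 called 3 members lower (Gbp2, Gbp3 and Gbp6), against 0.21% of all genes in either direction. With no filter on low counts edgeR called 6 members and 0.801% of all genes, but that fit gave each gene no spread of its own beyond the trend with level (infinite prior degrees of freedom, against 3.89 with the filter) and adjusted p-values down to 1.1e-23, so its counts are not set beside the comparisons below. The median of the members was -1.62 against 0 over all genes tested. Summed T cell markers lay at 2.27 to 6.4 CPM in the EV tumors and at 7.07 to 9.31 CPM in PBS, with 0 of 6 called. Keratinocyte markers lay at 0.2 to 50.4 CPM and at 61.8 to 115 CPM, with 0 of 4 called. The part of these markers was not tested.

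After 1 dose of exoCDN2 (0.1 µg), the largest of the members' rises was that of Gbp5. Gbp5 reached 246 and 274 CPM, against 19.7 and 22.6 CPM in PBS, a 12.3-fold difference (log2 3.62, SE 0.38, adjusted p = 0.00024). The 2 pairs lay far apart. Gbp3 rose to 225 and 237 CPM (log2 1.76, SE 0.31, adjusted p = 0.0073), and Gbp9 to 48.8 and 61.9 CPM from 16.8 and 17.6 CPM (log2 1.69, SE 0.37, adjusted p = 0.027). These were the 3 of 8 members called higher, against 2.2% of all genes. Without PBS tumor 1 or without PBS tumor 2, 1 member was called, Gbp5, with the lone control assumed to vary like the other groups, and 1 was called with all 4 PBS tumors as a single control. DESeq2 called 5, against 3.21% of all genes.

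The other members did not pass the test after 1 dose of exoCDN2. Gbp2 stood at 598 and 737 CPM (log2 1.42, SE 0.44, adjusted p = 0.12), Gbp7 at 391 and 387 CPM against 130 and 148 CPM (1.48, SE 0.51, adjusted p = 0.16), and Gbp6 at 202 and 299 CPM against 121 and 136 CPM (0.96, SE 0.45, adjusted p = 0.32). All of these exoCDN2 tumors lay above both PBS tumors, as they did for 6 of the 8 members and 31.7% of all genes. Gbp4, reported to restrain IRF7-driven interferon production, did not follow, at 78.7 and 182 CPM on either side of the PBS tumors (log2 0.13, SE 0.55, adjusted p = 0.94). Gbp8 lay below PBS in both tumors, at 0.753 and 2.05 CPM against 3.43 and 4.58 CPM (log2 -1.52, SE 0.77, adjusted p = 0.37), on 38 and 89 counts. T cell markers summed to 2.78 to 3.96 CPM here, below PBS, with 0 of 6 called. Neutrophil markers summed to 36 to 58.7 CPM against 4.42 to 4.69 CPM, with 2 of 5 called higher. Keratinocyte markers summed to 0.184 to 1.53 CPM against 61.8 to 115 CPM, with 0 of 4 called. The part of these markers was not tested.

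Free CDN2 at 20 µg gave the same calls after 1 dose. Gbp5 stood at 268 and 392 CPM (15.6-fold, log2 3.96, SE 0.39, adjusted p = 0.00014), Gbp3 at 178 and 234 CPM (log2 1.59, SE 0.31, adjusted p = 0.012) and Gbp9 at 52.5 and 67.3 CPM (log2 1.80, SE 0.37, adjusted p = 0.017). Here all 8 members lay above both PBS tumors, as did 28.6% of all genes, and the 3 named were called higher, against 2.26% of all genes. Gbp6 was nearest among those not called (339 and 471 CPM, log2 1.65, SE 0.45, adjusted p = 0.071). Gbp4 stood at 242 and 358 CPM (1.33, SE 0.56, adjusted p = 0.26) and Gbp8 at 5.35 and 8.92 CPM (0.83, SE 0.73, adjusted p = 0.65). Without tumor 2 of CDN2, without PBS tumor 1 or without PBS tumor 2, and with all PBS tumors pooled, 1 member was called, whereas DESeq2 called 5, against 2.99% of all genes. Endothelial markers summed to 27.4 to 28.1 CPM in these tumors against 74 to 77.3 CPM in PBS, with 3 of 4 called lower (Cdh5, Kdr and Pecam1), and 1 of 5 neutrophil markers was called higher and 1 of 7 melanoma markers lower. Keratinocyte markers summed to 0.914 to 5.48 CPM against 61.8 to 115 CPM, with 0 of 4 called. Their part was not tested. Both comparisons use the same PBS tumors, so their shared calls are not independent of each other.

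**Figure D3:**
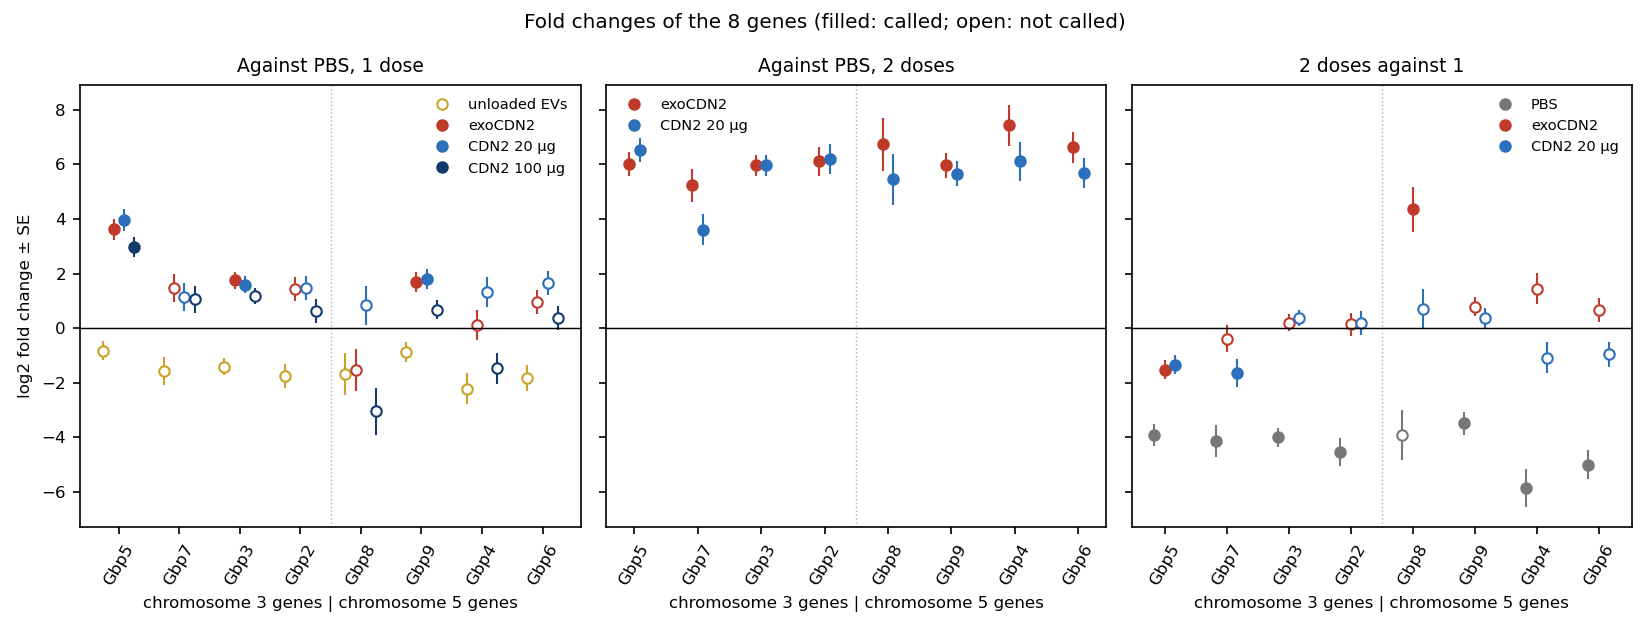
Log2 fold change of each member with its standard error, against PBS of the same number of doses (left and middle) and of 2 doses against 1 (right). Filled points passed both limits, and n is 2 tumors per group. Gbp5 leads after 1 dose, all points are filled against the low PBS pair of 2 doses, and the PBS change itself (grey) lies between -5.86 and -3.49.

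At 100 µg of CDN2, Gbp5 stood at 153 and 177 CPM (7.81-fold over PBS, log2 2.97, SE 0.37, adjusted p = 0.0011), the single member of 8 called higher, against 1.82% of all genes. Gbp3 at 160 and 146 CPM (1.17, SE 0.30, adjusted p = 0.067) and Gbp7 at 308 and 270 CPM (1.05, SE 0.50, adjusted p = 0.36) lay above both PBS tumors without a call. So did Gbp2, Gbp6 and Gbp9, and the share of all genes not overlapping PBS was not counted here. Gbp4 lay below PBS at 31.5 and 53.8 CPM (log2 -1.48, SE 0.57, adjusted p = 0.22), and Gbp8 at 0.317 and 0.643 CPM (log2 -3.05, SE 0.86, adjusted p = 0.09), which rests on 13 and 26 counts. Neither gene overlapped PBS, and neither difference passed the test. DESeq2 called 2 members higher, against 2.72% of all genes, and Gbp8 lower. T cell markers summed to 1.51 to 1.71 CPM in these tumors, with 3 of 6 called lower than in PBS, and their part in the levels of Gbp4 and Gbp8 was not tested. Keratinocyte markers summed to 2.2 to 5.19 CPM against 61.8 to 115 CPM in PBS, with 0 of 4 called, and their part was not tested.

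Set against 20 µg directly, all 8 members had lower fitted levels at 100 µg, and for 7 of them the tumors did not overlap, with Gbp7 the exception, as for 28.9% of all genes in that direction. No member was called by edgeR (0.455% of all genes were), 5 had an unadjusted p under 0.05, as did 16.5% of all genes, and DESeq2 called 3 (Gbp4, Gbp8 and Gbp9), against 2.62%. Gbp4 differed by -2.81 (SE 0.59, adjusted p = 0.058) and Gbp8 by -3.88 (SE 0.87, adjusted p = 0.066), whereas Gbp7 differed by -0.08 with a 95% interval from -1.16 to 1.00. Gbp3, at -0.43, had an interval from -1.08 to 0.23, and Gbp5, at -1 (adjusted p = 0.18), one from -1.75 to -0.24. With all 18 tumors in one model 1 member was called. Of 4 endothelial markers, 3 were called higher at 100 µg than at 20 µg, with sums of 72.4 to 98.2 CPM against 27.4 to 28.1 CPM, and their part was not tested.

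ExoCDN2 was also set against unloaded EVs, both after 1 dose. The labels give no amount for the unloaded EVs, so whether the vesicles were matched in number is not known. Here 7 of 8 members were called higher, against 2.52% of all genes. Gbp5 differed by 4.45 on the log2 scale (21.9-fold, SE 0.40, adjusted p = 5.4e-05), Gbp2 and Gbp3 each by 3.17 (9.01-fold, SE 0.47 and 0.33), and Gbp4 by 2.35 (SE 0.59, adjusted p = 0.049). With the replicate numbers added to the model as a block, Gbp4 lost its call. Gbp8 did not differ detectably, at 0.15 with a 95% interval from -1.59 to 1.89, and its EV tumors at 0.432 and 2.10 CPM overlapped those of exoCDN2. Without EV tumor 1 the count of calls fell to 4. None of the listed cell type markers was called in this comparison. Both EV tumors lay below both PBS tumors for all 8 members, as given above.

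The loaded vesicles carried 0.1 µg of CDN2 and the free agent was given at 20 µg, so these groups differ in amount as well as in form. Between them, no member was called after 1 dose (0.608% of all genes were), 1 had an unadjusted p under 0.05, against 19.5% of all genes, and DESeq2 called 1, Gbp8, against 2.71%. The intervals were narrowest for Gbp3, at 0.16 (95% interval -0.49 to 0.82), and Gbp5, at -0.34 (-1.09 to 0.41), and their tumors overlapped. Gbp8 had the largest difference, -2.36 (-4.06 to -0.65, adjusted p = 0.13), with both exoCDN2 tumors below both CDN2 tumors. Gbp4 differed by -1.20 (-2.43 to 0.02, adjusted p = 0.27) in the same direction, again without overlap. Gbp6, at -0.69, also lay below without overlap, and Gbp7, at 0.34, lay above without overlap. The share of all genes not overlapping was not counted here. Of 4 endothelial markers, 3 were called higher with exoCDN2 than with CDN2 after 1 dose (sums of 79.3 to 81.3 CPM against 27.4 to 28.1 CPM), and their part was not tested. After 2 doses, Gbp7 was the one member called, higher with exoCDN2 (333 and 261 CPM against 56.0 and 137 CPM, log2 1.62, SE 0.51, adjusted p = 0.028), against 7.34% of all genes called higher. Without CDN2 tumor 1, the library of lowest depth, the value was 1.12 and was not called, and the call was also lost without either exoCDN2 tumor. Of the members not called in this comparison, Gbp4 differed by 1.32 (95% interval 0.09 to 2.55) and Gbp8 by 1.3 (-0.29 to 2.88). Gbp6 differed by 0.92 (-0.05 to 1.9) and Gbp5 by -0.52 (-1.27 to 0.23). Gbp2, Gbp3 and Gbp9 lay within 0.31 of 0. Neutrophil markers (4 of 5), skeletal muscle markers (3 of 4) and fibroblast markers (2 of 4) were called lower with exoCDN2 than with CDN2 after 2 doses, and T cell (2 of 6), melanoma (2 of 7), macrophage (1 of 6) and endothelial markers (1 of 4) higher, and their part was not tested.

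After 2 doses both treatments raised all 8 members over PBS, with no overlap for any, as for 30.3% of all genes with exoCDN2 and 34.2% with CDN2. With exoCDN2, 8 of 8 were called higher, against 8.87% of all genes, and with CDN2 (20 µg) 8 of 8, against 20% of all genes. Gbp4 reached 470 and 242 CPM with exoCDN2, against 3.14 and 0.941 CPM (log2 7.44, SE 0.75, adjusted p = 5.1e-05), and 145 and 138 CPM with CDN2 (log2 6.11, SE 0.71, adjusted p = 8.1e-05). Gbp8 reached 44.3 and 12.7 CPM with exoCDN2, against 0.347 and 0.175 CPM (6.74, SE 0.97, adjusted p = 0.00065), and 16.6 and 6.66 CPM with CDN2. Gbp2, the most abundant member, reached 953 and 522 CPM with exoCDN2 and 897 and 659 CPM with CDN2, 68.9-fold and 72.9-fold over PBS. The smallest change was that of Gbp7 with CDN2 (12.2-fold, log2 3.61, SE 0.56, adjusted p = 0.00038). Medians of the members were 6.06 with exoCDN2 and 5.83 with CDN2, against 0.01 and 0 over all genes. No tumor left out in turn lowered either count below 8, but using all 4 PBS tumors as a single control did, to 4 with exoCDN2 and 5 with CDN2.

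Markers of several cell types moved with these values. T cell markers summed to 27.1 to 35.9 CPM with 2 doses of exoCDN2 and 9.47 to 11.1 CPM with CDN2, against 0.985 to 2.22 CPM in PBS, with 5 of 6 called higher in each. NK cell markers summed to 18.8 to 26.1 CPM and 7.85 to 10 CPM, against 1.01 to 2.16 CPM, with 4 of 4 and 2 of 4 called. Neutrophil markers summed to 17.4 to 56.8 CPM and 189 to 835 CPM, against 1.53 to 1.90 CPM, with 4 of 5 and 5 of 5 called. Macrophage markers summed to 258 to 390 CPM and 308 to 497 CPM, against 94.6 to 103 CPM, with 3 of 6 and 4 of 6 called higher, and Ptprc, which marks cells of blood origin, was called higher in both. Of 4 fibroblast markers, 2 and 3 were called higher. With CDN2, 3 of 4 skeletal muscle markers were called higher, and 4 of 7 melanoma markers and 1 of 4 endothelial markers lower. No T cell, NK cell or macrophage marker was at 0 in both tumors of any group. Their part in the GBP levels was not tested.

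Of the 8 members, 2 were called between the first and the second dose of exoCDN2, and 2 between those of CDN2 (20 µg). From 1 to 2 doses of exoCDN2, Gbp8 rose from 0.753 and 2.05 CPM to 44.3 and 12.7 CPM (20.4-fold, log2 4.35, SE 0.83, adjusted p = 0.0073) and Gbp5 fell from 246 and 274 CPM to 121 and 59.6 CPM (log2 -1.53, SE 0.35, adjusted p = 0.016). These 2 of 8 were called, against 7.44% of all genes in either direction, and Gbp4 had a value of 1.45 (SE 0.57, adjusted p = 0.12). Gbp2 at 0.14 and Gbp3 at 0.20 had overlapping tumors. Without tumor 1 of the first dose of exoCDN2 no member was called, and without any other of the 4 tumors 1 was. From 1 to 2 doses of CDN2 (20 µg), Gbp5 fell by 1.35 on the log2 scale (SE 0.35, adjusted p = 0.012) and Gbp7 by 1.66 (SE 0.51, adjusted p = 0.025), against 6.36% of all genes called lower, and no member was called higher. Those 2 calls dropped to 0 without tumor 2 of the first dose and to 1 without any other tumor. Gbp5 was thus the one member called lower at the second dose of both treatments. In the same exoCDN2 comparison, T cell (5 of 6), NK cell (2 of 4), macrophage (2 of 6) and fibroblast markers (1 of 4) were called higher. In that of CDN2, neutrophil (5 of 5), endothelial (4 of 4), fibroblast (3 of 4), skeletal muscle (3 of 4), macrophage (2 of 6) and NK cell markers (1 of 4) were called higher and melanoma markers (3 of 7) lower. Their part in the values of Gbp8, Gbp5 and Gbp7 was not tested.

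Relative to the PBS tumors of the same number of doses, the change from first to second dose was positive for all 8 members in both treatments. All 8 were called higher with exoCDN2, against 5.12% of all genes, and with CDN2, against 11.7% of all genes. With exoCDN2 it ran from 2.38 for Gbp5 (SE 0.52, adjusted p = 0.016) to 8.27 for Gbp8 (SE 1.23, adjusted p = 0.0023), and with CDN2 from 2.47 for Gbp7 (SE 0.72, adjusted p = 0.031) to 4.78 for Gbp4 (SE 0.85, adjusted p = 0.0045). These values contain the difference between the PBS tumors of 2 doses and 1, which was -3.91 for Gbp5 and -3.92 for Gbp8, and both treatments share those 4 PBS tumors. Leaving out 1 tumor at a time gave 6 to 8 calls for each treatment. T cell markers were called higher in the same test (5 of 6 with exoCDN2 and 3 of 6 with CDN2), as were macrophage markers (4 of 6 and 3 of 6), NK cell markers (2 of 4 and 1 of 4) and Ptprc (both). With exoCDN2, 1 of 4 keratinocyte markers was also called higher. With CDN2, neutrophil (3 of 5), fibroblast (2 of 4) and endothelial markers (2 of 4) were called higher and melanoma markers (4 of 7) lower. The part of these cell types was not tested.

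Ratios between members within a tumor need no scaling between libraries, and the ones shown were chosen after their values were seen. Gbp5 had 0.179 and 0.176 counts per count of Gbp4 in PBS after 1 dose. The ratio was 3.13 and 1.51 after exoCDN2, 1.11 and 1.09 after CDN2 (20 µg) and 4.86 and 3.29 after CDN2 (100 µg), so every treated tumor of 1 dose lay over both PBS tumors. After 2 doses of exoCDN2 it was back at 0.257 and 0.246, below the 2-dose PBS tumors at 0.494 and 1.33, and after 2 doses of CDN2 it was 1.19 and 0.622. Unloaded EVs after 1 dose spread widely, at 0.931 and 0.284, and also lay over both PBS tumors of 1 dose. Against Gbp2, Gbp5 held 0.0911 and 0.0801 counts per count in PBS, 0.372 to 0.492 in the 6 tumors given 1 dose of either form of CDN2, and 0.114 to 0.192 in those given 2 doses of exoCDN2 or CDN2 (20 µg), against 0.102 and 0.201 in PBS after 2 doses. In the unloaded EV tumors it was 0.279 and 0.104, again over both PBS tumors of 1 dose. Gbp3 per Gbp2, by contrast, kept between 0.254 and 0.448 in all 18 tumors. The smallest p that an exact permutation test allows at this group size is 0.333, so these ratios were not tested.

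**Figure D4:**
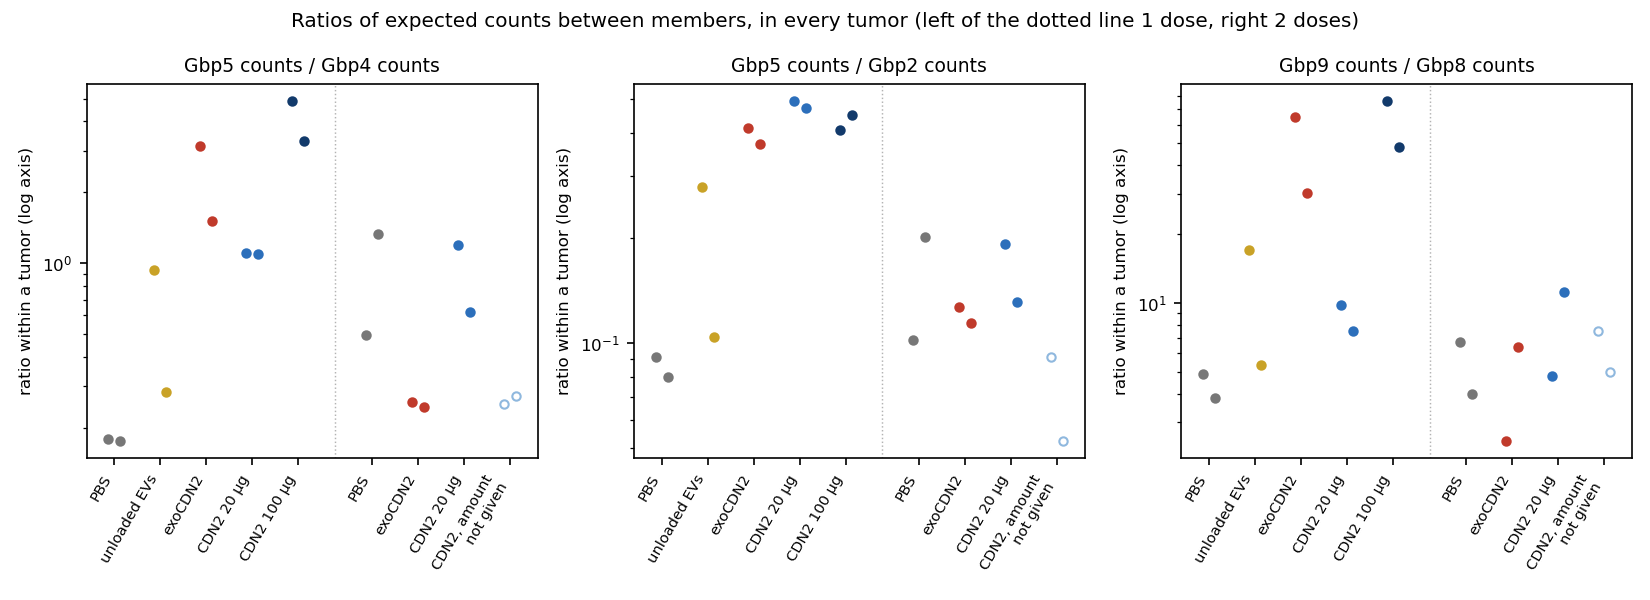
Ratio of expected counts between pairs of members within each tumor, on log axes, with 1 point per tumor and open points for the amount not stated. Gbp5 per Gbp4 and Gbp5 per Gbp2 lie above the PBS tumors of 1 dose in every tumor given 1 dose of exoCDN2, CDN2 or unloaded EVs. Gbp9 per Gbp8 is 75.8 and 47.9 after 100 µg and 64.7 and 30.2 after 1 dose of exoCDN2, pairs that overlap.

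The clusters took different shares of the family's counts. Chromosome 3 genes held 61.2% and 62.8% of all family counts in PBS after 1 dose, 81.2% and 73.7% after exoCDN2, 64.5% and 64.2% after CDN2 (20 µg) and 81.9% and 78.8% after 100 µg. After 1 dose of unloaded EVs they held 71.4% and 64.9%, also above both PBS tumors. After 2 doses they held 73.9% and 76.7% in PBS, 54.1% and 59.0% with exoCDN2 and 73.8% and 69.4% with CDN2 (20 µg). Summed by cluster, exoCDN2 differed from PBS after 1 dose by 1.69 for chromosome 3 (SE 0.40, adjusted p = 0.039) and by 0.66 for chromosome 5 (SE 0.50, adjusted p = 0.59). After 2 doses the sums differed by 5.84 and 7.06, both called. Whether the clusters differ from each other was not tested.

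The 3 other family genes tested did not move as one. Gbp11, annotated as a polymorphic pseudogene on chromosome 5, stood at 2.86 and 6.62 CPM after 1 dose of exoCDN2 against 0.656 and 0.713 CPM in PBS (log2 2.78, SE 0.62) and was called higher, as with CDN2 (20 µg) at 3.27. Gbp10, on chromosome 5, was 98.4% identical to Gbp6 in its coding sequence and stood at 305 and 102 CPM after 2 doses of exoCDN2 against 0.388 and 0.175 CPM in PBS, the largest fold change of the family (log2 9.47, SE 1.15), although 66.59% of its stretches of 150 bases were shared. Gbp2b, next to Gbp2 and known before as Gbp1, went the other way after 1 dose of CDN2 (100 µg), with 4 and 2 counts against 30 and 97 in PBS (log2 -4.08, SE 0.99), and was called lower on these few counts. After 2 doses of exoCDN2, 3 of these 3 genes were called higher than PBS, and with CDN2 (20 µg) 2 of 3.

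Among 14 regulators of GBP transcription, the genes of interferon-β and IRF1 were lower after 2 doses than after 1 of both treatments, while interferon-γ was not called. Ifnb1, which encodes interferon-β, stood at 23.9 and 19.9 CPM after 1 dose of exoCDN2, 13.9 and 54.4 CPM after CDN2 (20 µg) and 40.3 and 36.4 CPM after 100 µg, against 0.131 and 0.119 CPM in PBS. After 2 doses it was at 0.136 and 0.0423 CPM with exoCDN2 (-7.99 against 1 dose, SE 1.19, adjusted p = 0.0036) and at 10.4 and 1.06 CPM with CDN2 (20 µg) (-2.63, SE 0.84, adjusted p = 0.032). Ifng, which encodes interferon-γ, stood at 4.50 and 8.10 CPM after 1 dose of exoCDN2 and at 5.10 and 3.19 CPM after 2, against 0.941 and 1.55 CPM in PBS of 1 dose and 0.0408 CPM and 0 in PBS of 2 doses (2 and 0 counts). With CDN2 (20 µg), Ifng stood at 1.66 and 11.8 CPM after 1 dose and at 1.01 and 1.86 CPM after 2 (-2.19, SE 0.87, adjusted p = 0.068). Irf1, a transcription factor at GBP promoters, rose to 838 and 1000 CPM after 1 dose of exoCDN2 from 126 and 145 CPM (log2 2.76, SE 0.31, adjusted p = 0.00034) and lay at 338 and 200 CPM after 2 (-1.77 against 1 dose, SE 0.30, adjusted p = 0.0043). With CDN2 (20 µg) Irf1 was lower by the same test (-1.57, SE 0.29, adjusted p = 0.0025), and Irf2, a relative of Irf1, was called lower from 1 to 2 doses of exoCDN2 (-1.08, SE 0.22, adjusted p = 0.011). Of the 14 regulators, 6 were called higher after 1 dose of exoCDN2, 5 after CDN2 (20 µg) and 5 after 100 µg, and 7 and 8 after 2 doses of exoCDN2 and CDN2, with 0 called lower in any of these, against the shares of all genes given for these comparisons above. Their median was 0.83 after 1 dose and 1.26 after 2 doses of exoCDN2, against -0.02 and 0.01 over all genes. From 1 to 2 doses of PBS, 4 were called lower, Irf1, Irf8, Irf9 and Stat2.

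**Figure D5:**
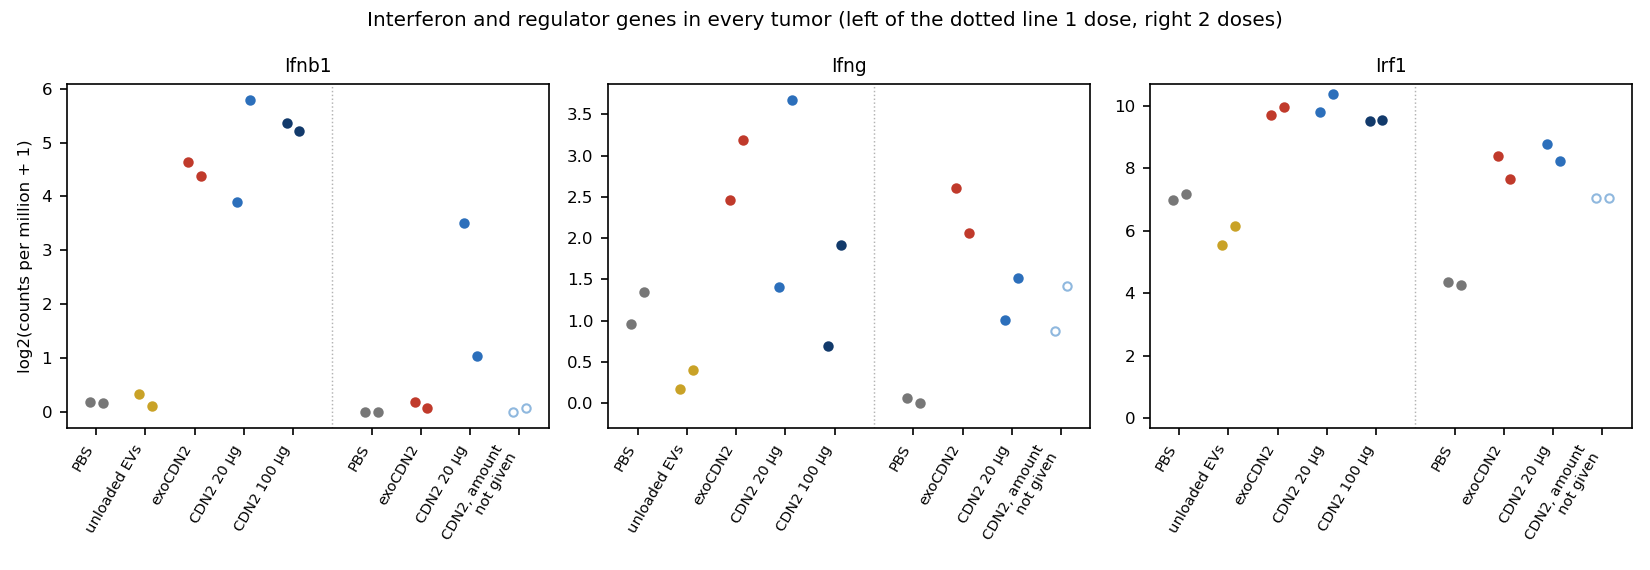
Log2(CPM + 1) of Ifnb1, Ifng and Irf1 in every tumor, 1 dose left and 2 doses right of the dotted line, with open points for the amount not stated. Ifnb1 is high after 1 dose of exoCDN2 or CDN2 and near 0 after 2 doses of exoCDN2, where Ifng and Irf1 stay above PBS.

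Genes that work with GBPs in cell-autonomous immunity were counted as well. Of 20 such genes, 5 were called higher after 1 dose of exoCDN2, 6 after CDN2 (20 µg) and 2 after 100 µg, and 12 and 13 after 2 doses of exoCDN2 and CDN2, with 0 called lower, against 2.2%, 2.26%, 1.82%, 8.87% and 20% of all genes called higher. From 1 to 2 doses of PBS, 8 of the 20 were called lower, Irgm2 and Gsdmd among them, against 1.05% of all genes, so the 2-dose values rest on that PBS pair. Their median was 0.43 after 1 dose and 3.40 after 2 doses of exoCDN2. Irgm2, an immunity-related GTPase that restrains GBP loading onto membranes, rose by 2.17 after 1 dose of exoCDN2 (SE 0.25, adjusted p = 0.00049) and by 5.46 after 2 (SE 0.30, adjusted p = 6.8e-07). Casp4, which encodes mouse caspase-11, the protease that senses lipopolysaccharide on GBP-coated bacteria, rose from 4.22 and 5.61 CPM to 37.9 and 39.3 CPM after 1 dose of exoCDN2 (log2 2.97, SE 0.36, adjusted p = 0.00058). Its pore-forming substrate Gsdmd, named after its values were seen, had a value of -0.11 after 1 dose (SE 0.33, adjusted p = 0.92) and rose by 3.58 after 2 (SE 0.37, adjusted p = 6.5e-05). The 3 atlastins, GTPases of the same superfamily that shape the endoplasmic reticulum, gave 0 calls against PBS in any group, although Atl3 after 2 doses of CDN2 (20 µg) passed the adjusted p and not the ratio (-0.93, adjusted p = 0.00091). Atl3 stood at 77.9 and 80.2 CPM after 1 dose of exoCDN2 against 69.5 and 71.3 CPM.

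Over the 16 tumors of the model, the members varied together to unequal degrees. Pearson's r of log2 CPM was 0.992 for Gbp2 with Gbp3 and 0.984 for Gbp2 with Gbp6, within and across the clusters, but 0.797 for Gbp4 with Gbp5 and 0.402 for Gbp7 with Gbp8. Of the other tested genes, the 5 most like the mean of the members were Ifi203 (r = 0.993), Igtp (0.991), Sp110 (0.99), Mndal (0.989) and Olfr56 (0.987). These correlations span groups that differ by treatment and are a description of the 16 tumors.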

How the data were processed

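Whole-tumor RNA was sequenced as 2 × 150 bp reads. The authors filtered the reads, aligned them to GRCm38 (mm10 in the labels), ran RSEM on Ensembl models, and deposited its expected counts per gene without normalization. Here they were rounded and tested with edgeR 4.0.16 (R 4.3.3): filterByExpr (minimum count 10, minimum total 15), TMM scaling and 1 quasi-likelihood model with 1 mean for each of 8 groups (16 tumors), adjusted by Benjamini-Hochberg over 16927 genes. The common biological coefficient of variation was 0.22. CPM uses TMM-scaled totals. Counts cover 21608895 to 65983630 per tumor. The 2 tumors given CDN2 of an amount not stated entered no main comparison. Alternatives were DESeq2 1.42.0, RLE factors, no filter, other sets of tumors, pooled PBS, a replicate block, summed clusters and each tumor left out. The fitting code was tested on simulated data. All 8 members are named, with fixed lists of family, regulator and partner genes, of which those with the smallest p are given. 1 gene of the regulator list is not reported here. Ifng, Irf2, Gsdmd and Atl3 were named after their values were seen. Members and lists were chosen with earlier results of these data known. Gene models are from GENCODE.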

Additional observations from a re-analysis of the deposited data

Results flagged for a closer look

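For all 8 members, the change from 1 to 2 doses differed between treated tumors and PBS tumors by edgeR's test of the difference itself, with the group of treatment and PBS as an interaction. With exoCDN2 the log2 difference was 4.68 for Gbp2, 4.21 for Gbp3, 7.30 for Gbp4, 2.38 for Gbp5, 5.66 for Gbp6, 3.75 for Gbp7, 8.27 for Gbp8 and 4.28 for Gbp9. With CDN2 (20 µg) it was 4.72 for Gbp2, 4.37 for Gbp3, 4.78 for Gbp4, 2.56 for Gbp5, 4.04 for Gbp6, 2.47 for Gbp7, 4.61 for Gbp8 and 3.86 for Gbp9. The same 4 PBS tumors enter both sets of values.

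The 2 tumors given 2 doses of CDN2 of an amount that the labels do not state lie outside the comparisons, and for 8 of 8 members both lay above both PBS tumors of 2 doses, as for 15% of all genes. Gbp2 stood at 216 and 303 CPM there, Gbp4 at 78.0 and 57.8 CPM, Gbp5 at 19.8 and 15.8 CPM and Gbp8 at 1.76 and 2.32 CPM. In a model of all 18 tumors, edgeR called 7 members higher than PBS of 2 doses, against 0.918% of all genes, with Gbp2 at 4.60 (SE 0.49, adjusted p = 0.00026) and Gbp8, at 2.94 (SE 0.86, adjusted p = 0.18), the exception. Against CDN2 (20 µg) after 2 doses, 5 members were called lower, against 16.4% of all genes: Gbp5 (-2.85), Gbp9 (-2.63), Gbp8 (-2.50), Gbp3 (-1.99) and Gbp2 (-1.58). Beside the PBS tumors of 1 dose, Gbp2, Gbp3 and Gbp5 overlapped and the other members lay below. The share of all genes lying below was not counted, and these differences were not tested.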

How the results depend on the processing

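With DESeq2 the members called were 3 for unloaded EVs, 5 for exoCDN2 and 5 for CDN2 (20 µg) against PBS after 1 dose, 2 called higher (and Gbp8 lower) for 100 µg, 1 for exoCDN2 against CDN2 after 1 dose and 3 for 100 µg against 20 µg. With no filter on low counts the same 6 comparisons gave 6, 5, 7, 3, 2 and 5, with 3 for exoCDN2 against CDN2 after 2 doses and 4 lower for CDN2 from 1 to 2 doses. That fit over 28330 genes had infinite prior degrees of freedom, against 3.89 with the filter, and called 0.801% to 12.7% of all genes, with adjusted p-values down to 3.9e-172, so a count from it is weak evidence for a call. With only the groups compared in the model, exoCDN2, CDN2 (20 µg) and 100 µg against PBS after 1 dose gave 5, 7 and 3, exoCDN2 against CDN2 gave 1 after 1 dose and 0 after 2, 100 µg against 20 µg gave 4 and CDN2 from 1 to 2 doses 0. All 18 tumors gave 1 for 100 µg against 20 µg. Pooling the PBS tumors gave 1 and 1 for exoCDN2 and CDN2 (20 µg) after 1 dose, 4 and 5 after 2 doses, and turned Gbp5 after unloaded EVs to 0.07. For the fits with only the groups compared and with pooled PBS, the share of all genes called was not counted. Nor was it for the replicate block, summed clusters, each tumor left out, or 100 µg against 20 µg in all 18 tumors. The counts of members from all these fits therefore have no background to be read against.

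Summing each cluster into one row gave 0 calls for 100 µg against PBS, exoCDN2 against CDN2 after 2 doses and both agents from 1 to 2 doses. In that fit each member was given the value of its cluster's sum, so these values describe the sums and not single genes. The chromosome 5 sum differed in sign from Gbp8 after 1 dose of exoCDN2 (0.66) and from Gbp6 and Gbp9 after 100 µg (-0.27). In exoCDN2 against CDN2, the chromosome 3 sum differed in sign from Gbp2 and Gbp5 after 1 dose (0.02) and after 2 doses (0.13). From 1 to 2 doses it differed in sign from Gbp2 and Gbp3 with exoCDN2 (-0.15) and with CDN2 (-0.27). The chromosome 5 sum did so from Gbp8 and Gbp9 with CDN2 (-0.76). Gbp3 in exoCDN2 against CDN2 after 2 doses was near 0 throughout, at -0.04 with DESeq2 and with RLE factors, 0.07 with no filter, -0.01 with only the groups compared and 0.01 with all 18 tumors.

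With the replicate block no count moved by over 1.5 times, Gbp3 in that comparison was 0.01, and Gbp4 in exoCDN2 against unloaded EVs, at 2.35, lost its call (adjusted p = 0.065 by edgeR, 6 members called). The replicate numbers were not shown to pair tumors: same-numbered tumors deviated with correlations from -0.30 to 0.38 over 13 comparisons. Crossing the numbers in the 3 comparisons under -0.1 left 8, 0 and 2 calls.

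Leaving out each tumor in turn gave 1 to 2 calls for exoCDN2 and 1 to 3 for CDN2 (20 µg) against PBS after 1 dose, 4 to 7 for exoCDN2 against EVs, 0 to 1 for exoCDN2 against CDN2 after 2 doses and 0 to 1 for either agent from 1 to 2 doses. In exoCDN2 against CDN2 after 1 dose, Gbp3 reached 0 (0 to 0.37). Values that changed sign were Gbp7 in 100 µg against 20 µg (-0.28 to 0.13), Gbp2 (-0.30 to 0.29) and Gbp9 (-0.30 to 0.08) in exoCDN2 against CDN2 after 1 dose, and Gbp2 (-0.56 to 0.31), Gbp3 (-0.16 to 0.19) and Gbp5 (-1.09 to 0.06) after 2 doses. The same held for Gbp2 (-0.14 to 0.49) and Gbp8 (-0.11 to 1.17) in CDN2 from 1 to 2 doses, Gbp2 in exoCDN2 from 1 to 2 doses (-0.36 to 0.51), Gbp8 in exoCDN2 against EVs (-0.73 to 1.68) and Gbp4 in exoCDN2 against PBS after 1 dose (-0.60 to 0.61). Gbp8 rests on the fewest counts, 8 in the lowest tumor, and with 2 tumors per group small differences were not detectable.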
